A study of Mus musculus with 4 samples.

Results

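ERVK is one family of endogenous retroviruses in the mouse genome, and its row was followed here through oocytes and pre-implantation embryos. The row named ERVK was taken from the table of read counts per repeat family, where it is 1 of 47 families, 1 of 34 transposon families and 1 of 9 families with long terminal repeats (LTRs). It held 466392 of 4890830 counts over all 11 columns, or 9.54%. RNA 5′ ends were read by nanoCAGE, a method that selects capped RNA from small amounts of material. Each column, called a run here, holds the counts of 1 stage, and some runs were sequenced together. The stages were fully grown oocytes and embryos at 48 h (2-cell), 68 h (8-cell) and 92 h (blastocyst). Oocytes and embryos came from F1 (C57BL/6J X CBA/H) crosses, and no treatment or genetic change is given in the labels. The number of animals or embryos pooled is not stated in the labels.

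The ERVK family holds the intracisternal A-particle (IAP) elements and the early transposons (ETn). Like retroviruses, such elements carry an LTR at each end, and the promoter in the LTR starts the RNA that is later copied back into DNA. IAP and ETn elements are known for new insertions that still cause mutations in laboratory mice, and DNA methylation and histone H3 lysine 9 methylation are known to keep them silent in most cells. Both are also known to be transcribed in pre-implantation embryos. The table gives the family as a whole, so its members were not analysed separately here, and no ERVK sequence was at hand to print.

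Each stage was 1 sample read in 2 or 3 runs, so no p-value, SD or SE between stages was computed, and the spread given is that between runs. Runs held 36922 to 1919263 counts. Oocyte run 1.1 and 8-cell run 2 stood apart from the other runs of their stage in ribosomal RNA (rRNA), at 44.9% and 26.5% of counts. Oocyte runs 1.2 and 2 had 14.0% and 10.3%, and 8-cell runs 1.1 and 1.2 had 0.807% and 3.81%. The read placements deposited beside the table numbered 33473 to 1375332 per run, and there were 0.797 to 2.07 counts per placement, with 2.07 in oocyte run 1.1. The table holds no genes, so the stages could not be checked against marker genes.

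The ERVK share of all repeat counts was highest at the 2-cell stage, where L1 and MaLR had larger mean shares (22.4% and 16.1%). In the oocyte ERVK had 5.61%, 9.11% and 9.41% of counts (runs 1.1, 1.2 and 2). In the 2-cell embryo it had 13.4% and 13.5% (runs 1 and 2). The 2-cell runs differed by a factor of 1.004 and lay above every run of the other stages. At the 8-cell stage runs 1.1, 1.2 and 2 had 8.77%, 10.2% and 10.5%. Blastocyst runs, in this order, had 7.05%, 7.29% and 10.6%. Ordered by the mean of runs, the oocyte had 8.04%, the blastocyst 8.33%, the 8-cell embryo 9.85% and the 2-cell embryo 13.5%. Oocyte and blastocyst overlapped, as did blastocyst and 8-cell embryo, and only the 2-cell embryo was separated from its neighbour in this order. In such bulk samples fewer transcribing cells and less RNA per cell cannot be told apart. The exact (Clopper-Pearson) 95% interval of a run spanned at most 0.533 percentage points of the column total, in counting error only.

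**Figure D1:**
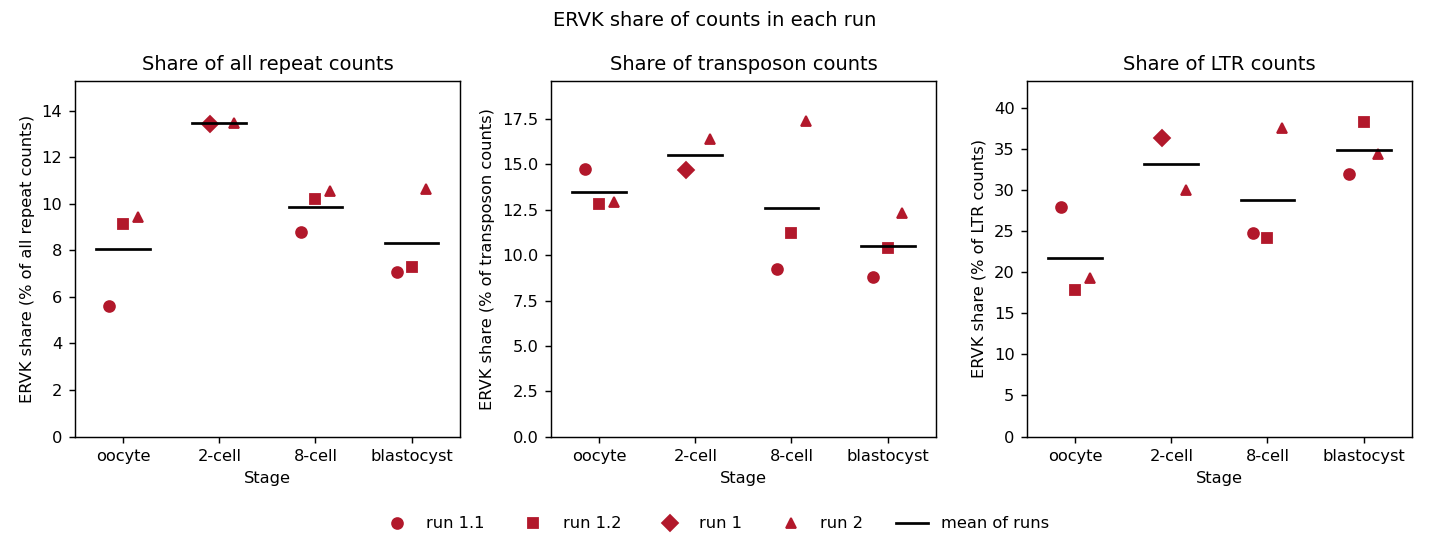
ERVK share of counts in each run (points) and the mean of runs (bar) by stage, in percent of all repeat counts, of transposon counts and of LTR counts. Both 2-cell runs are highest in the left panel at 13.4% and 13.5%, whereas in the middle and right panels the highest values are those of 8-cell run 2 (17.4%) and blastocyst run 1.2 (38.3%).

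From oocyte to 2-cell embryo the ratio of mean ERVK shares was 1.67, from 1.43 for the closest to 2.41 for the most distant pair of runs. A family was called when stage means differed at least 2-fold and the runs of both stages did not overlap. ERVK did not pass, since its runs were apart but the ratio was under 2. Of the 47 families 31.9% were called higher and 8.51% lower in this step, and the runs of 46.8% were apart at any size. On the log2 scale ERVK had a ratio of 0.74, which was also the median of all 47 families. The median was 0.52 among the 38 families that reached 100 counts over both stages, of which 9 were called higher and 4 lower. With size factors, which scale each run by the median family, the ratio of ERVK was 1.09 with overlapping runs. In plain shares, without size factors, the ratio was 1.45 when oocyte run 1.1 was left out, with runs apart.

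In the 8-cell embryo ERVK had 0.732 times its 2-cell share, with runs apart (0.651 to 0.785 over pairs of runs). The runs overlapped with size factors (0.963), without RNA gene rows (0.768) and without RNA, satellite and simple rows (0.811). This was also under 2-fold, and the called families were 2.13% higher and 8.51% lower, with 12.8% apart at any size. The blastocyst had 0.619 times the 2-cell share, again with runs apart (0.523 to 0.793). Here 10.6% of families were called higher, 2.13% lower, and the runs of 21.3% were apart. By its ratio ERVK stood low among the 34 families with at least 100 counts in this comparison, where 5 had a lower ratio.

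The other pairs of stages overlapped in ERVK share. From the 8-cell embryo to the blastocyst the ratio was 0.846 (0.669 to 1.21 over pairs of runs), with 8.51% of families called higher and 4.26% lower. Between oocyte and 8-cell embryo it was 1.22 (0.932 to 1.88), with 17% called higher and 6.38% lower. Between oocyte and blastocyst it was 1.04 (0.749 to 1.90), and 27.7% and 6.38% of families were called higher and lower. Of 36 families with at least 100 counts in this last comparison, 6 were called higher and 3 lower, and 2 had a smaller change in either direction than ERVK. This near equality depended on the denominator: with size factors the ratio was 0.681, with oocyte runs above blastocyst runs.

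**Figure D2:**
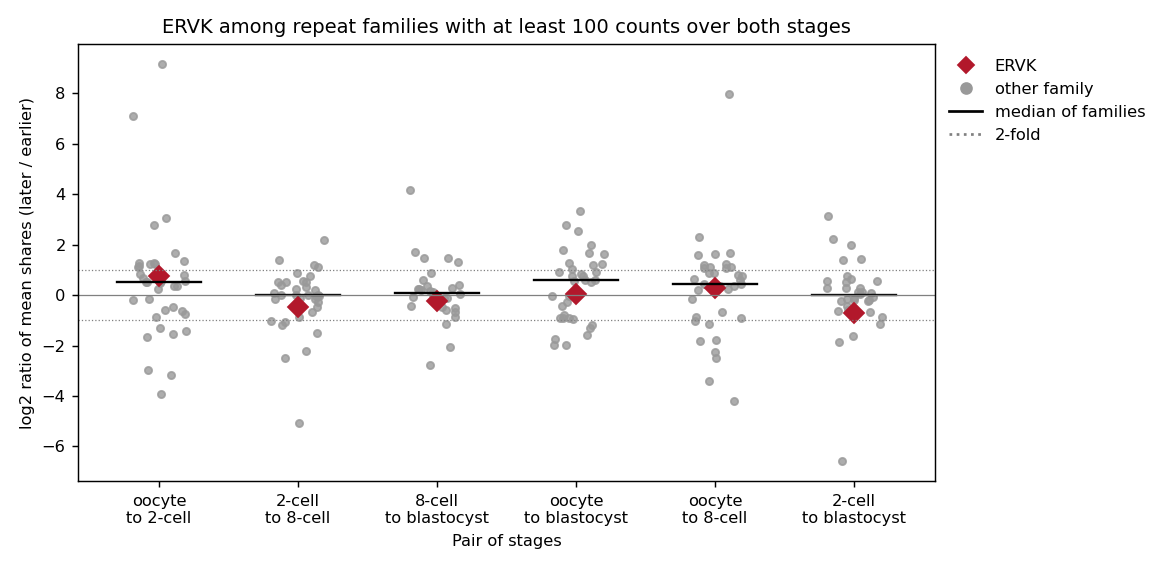
Log2 ratio of mean shares of all repeat counts, later over earlier stage, for ERVK (diamond) and every other family that reached 100 counts over both stages (points), for 6 pairs of stages. ERVK lies between the dotted lines of a 2-fold change in each pair, at 0.74 for oocyte to 2-cell and -0.69 for 2-cell to blastocyst, and the bar marks the median family.

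Among transposons alone, that is LINE, SINE, LTR and DNA transposon rows, the 2-cell embryo was no longer set apart. ERVK took 14.8%, 12.8% and 12.9% of transposon counts in oocyte runs 1.1, 1.2 and 2. Its 2-cell values were 14.7% (run 1) and 16.4% (run 2). Oocyte run 1.1 thus lay above 2-cell run 1, and the ratio of the means, 13.5% and 15.5%, was 1.15. Transposons were 37.9% to 72.8% of all counts over the oocyte runs, against 91.6% (run 1) and 82.2% (run 2) for the 2-cell embryo. rRNA was 10.3% to 44.9% in oocytes, against 4.53% and 12.8% of 2-cell counts. Without RNA gene rows the oocyte to 2-cell ratio in all counts was 1.41 with runs apart. Without RNA, satellite and simple rows it was 1.15 with overlapping runs. The part of these rows in the larger ratio in all counts was not tested. Of the 34 transposon families 20.6% were called higher and 2.94% lower in this step. Among the 25 of them with at least 100 counts over both stages, 1 was called higher and 1 lower.

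At the later stages ERVK took 9.22%, 11.2% and 17.4% of transposon counts in 8-cell runs 1.1, 1.2 and 2, and 8.80%, 10.4% and 12.3% in the corresponding blastocyst runs. 8-cell run 2 had the highest value of all 11 runs, and 8-cell run 1.1 one of the lowest. The blastocyst mean of 10.5% was 0.778 times the oocyte mean and 0.676 times the 2-cell mean, with runs apart in both comparisons and neither passing 2-fold. The runs of 38.2% and 17.6% of transposon families were apart in these comparisons. By mean share ERVK was the third transposon family at all 4 stages, after MaLR and L1 in the oocyte and after L1 and MaLR at the later stages. In 8-cell run 2 it was the first, with 1.11 counts per L1 count and 1.38 per MaLR count.

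Within the LTR class ERVK was second to MaLR by mean at every stage, and its share was lowest in the oocyte. Of LTR counts it had 27.9%, 17.9% and 19.3% in oocyte runs 1.1, 1.2 and 2. The 2-cell embryo had 36.3% (run 1) and 30.03% (run 2). All 2-cell runs lay above all oocyte runs, and the ratio of the means was 1.53. 8-cell runs 1.1, 1.2 and 2 had 24.7%, 24.1% and 37.6%. Those of the blastocyst had 31.9%, 38.3% and 34.4%. The blastocyst runs were also above the oocyte runs, with a ratio of 1.61, while the 8-cell embryo overlapped with all other stages. By the mean of runs the order was oocyte (21.7%), 8-cell embryo (28.8%), 2-cell embryo (33.2%) and blastocyst (34.8%), and all neighbours in this order overlapped. 44.4% of the 9 LTR families were called higher from oocyte to 2-cell embryo and 66.7% from oocyte to blastocyst. None was called lower, and ERVK was not among the called. The runs of 66.7% and 88.9% of these families were apart in the 2 comparisons, so that separated runs were common in the class.

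**Figure D3:**
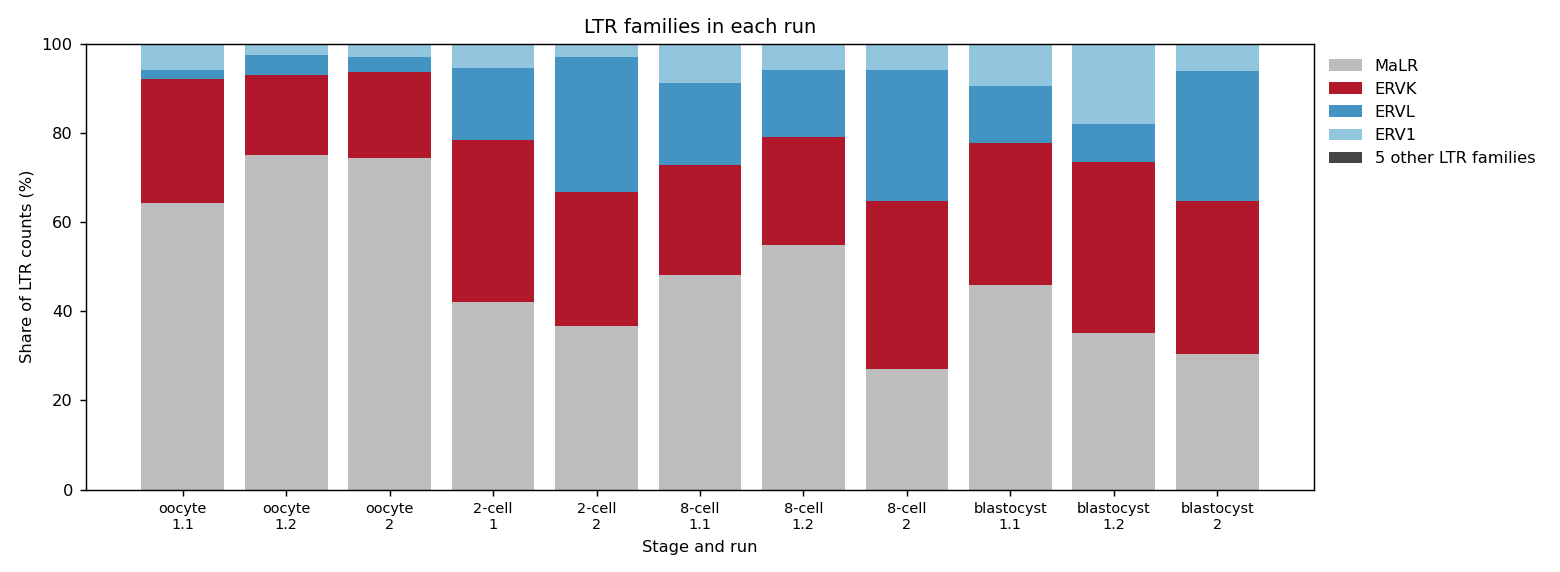
Share of LTR counts in percent taken by MaLR, ERVK, ERVL, ERV1 and the 5 other LTR families in each run, with stage and run under each bar. ERVK (red) takes 17.9% to 27.9% in the oocyte runs and 31.9% to 38.3% in the blastocyst runs, and the 5 other families are too few to be seen (at most 0.213%).

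The other LTR families changed around ERVK in different ways. MaLR, the group of MT and ORR1 elements that lacks its own coding genes, had 71.3% of LTR counts in the oocyte, 39.5% in the 2-cell embryo, 43.4% in the 8-cell embryo and 37.2% in the blastocyst. ERVL, which holds the MERVL elements known for transcription at the 2-cell stage, had 3.27%, 23.2%, 21.0% and 16.8% in the same order. ERV1, the family related to gammaretroviruses, had 3.70%, 4.07%, 6.67% and 10.9%. By share of LTR counts ERVL was called higher in the 2-cell embryo (7.09-fold), the 8-cell embryo (6.43-fold) and the blastocyst (5.13-fold) than in the oocyte. ERV1 was called higher in the blastocyst than in the oocyte (2.96-fold) and the 2-cell embryo (2.69-fold). Its blastocyst runs spanned 5.82% to 17.7%, and the lowest of them was only just above the highest oocyte run (5.78%). MaLR was not called in any pair of stages by share of LTR counts. As a share of all counts MaLR was called lower in the blastocyst than in the oocyte (3.32-fold), and as a share of transposon counts it was called lower in all 3 embryo stages than in the oocyte (2.47-fold, 2.46-fold and 4.15-fold). The 5 remaining LTR families (Gypsy, ERV1?, Gypsy?, ERVL? and the row named LTR) together had at most 0.213% of LTR counts in a run, and 3 of them held fewer than 100 counts in all runs.

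Counts of ERVK per count of another family do not depend on the denominator, and 46 families can be set against ERVK in this way. Per MaLR count there were 0.434, 0.238 and 0.260 ERVK counts in oocyte runs 1.1, 1.2 and 2. The 2-cell embryo had 0.861 (run 1) and 0.817 (run 2). At the 8-cell stage the values were 0.514, 0.439 and 1.38, against 0.694, 1.09 and 1.13 for the blastocyst (runs 1.1, 1.2 and 2). Every embryo run was above every oocyte run. The ratio of means passed the rule from oocyte to 2-cell embryo (2.70-fold), to 8-cell embryo (2.51-fold) and to blastocyst (3.12-fold). The 8-cell comparison did not pass without 8-cell run 2 (1.54-fold), nor in the only sequencing run shared by both stages (1.85-fold), and with counts summed over runs it was 4.61-fold. Set against ERVK, 13%, 10.9% and 4.35% of the 46 families were called lower in these 3 steps, MaLR among them each time.

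Per ERVL count the oocyte runs had 13.9, 3.96 and 5.87 ERVK counts. 2-cell runs 1 and 2 had 2.26 and 0.991, and the 8-cell embryo had 1.34, 1.60 and 1.27 (runs 1.1, 1.2 and 2). ERVK was thus lower against ERVL in every 2-cell and 8-cell run than in any oocyte run. The falls were 4.88-fold to the 2-cell embryo and 5.64-fold to the 8-cell embryo, in steps where 19.6% and 10.9% of the 46 families were called higher against ERVK. The fall to the 2-cell embryo was 3.03-fold when oocyte run 1.1 was left out and 7.99-fold when 2-cell run 1 was. The fall to the 8-cell embryo was 3.50-fold when oocyte run 1.1 was left out, 3.58-fold with summed counts and 2.48-fold in the shared sequencing run, and it passed each time. In the blastocyst there were 2.52, 4.47 and 1.18 ERVK counts per ERVL count, and 4.47 in run 1.2 lay above oocyte run 1.2.

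Per count of L1, the active LINE family that encodes its own reverse transcriptase, oocyte runs had 0.595, 1.13 and 0.870 ERVK counts. The 2-cell embryo had 0.446 (run 1) and 0.917 (run 2). At the 8-cell stage the values were 0.277, 0.429 and 1.11, against 0.189, 0.248 and 0.330 for the blastocyst. The blastocyst runs lay below all oocyte and 2-cell runs but overlapped with the 8-cell runs, and the falls of 3.39-fold from the oocyte and 2.67-fold from the 2-cell embryo passed the rule. The latter did not pass without 2-cell run 2 (1.75-fold). In these comparisons 30.4% and 17.4% of the 46 families were called higher against ERVK.

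Per ERV1 count there were 4.82, 7.37 and 6.71 ERVK counts at the oocyte stage, against 6.89 (run 1) and 10.5 (run 2) for the 2-cell embryo. The 8-cell embryo had 2.88, 4.23 and 6.54 (runs 1.1, 1.2 and 2), and the blastocyst 3.42, 2.17 and 5.90. ERVK outnumbered ERV1 in every run. The fall from 2-cell embryo to blastocyst was 2.27-fold and passed. From 2-cell to 8-cell embryo the runs were also apart, at 1.91-fold, which did not pass. Taken the other way round, as ERV1 counts per ERVK count, the same step had a ratio of 2.04 and passed, since means of inverse ratios differ, so this call depends on which family is the divisor. Of the 46 families 6.52% were called higher against ERVK in this step. Leaving out 8-cell run 2 gave a fall in ERVK per ERV1 of 2.44-fold, leaving out 2-cell run 1 gave 2.30-fold, and both passed. The shares of the 46 families called against ERVK use ERVK as the divisor. The fall from 2-cell embryo to blastocyst was 1.80-fold without 2-cell run 2 and 1.86-fold without blastocyst run 1.2, and neither passed.

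**Figure D4:**
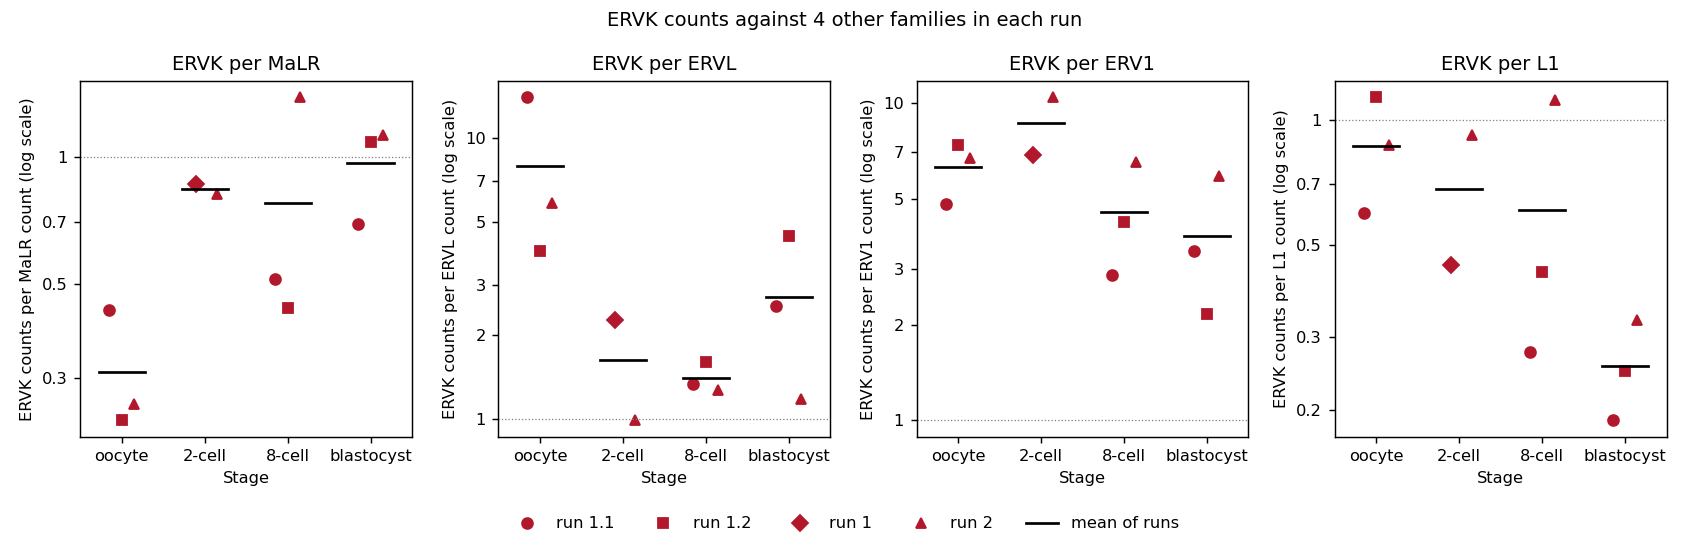
ERVK counts per count of MaLR, ERVL, ERV1 and L1 in each run (points, log scale) and the mean of runs (bar) by stage, with a dotted line at equal counts. Against MaLR the oocyte runs are lowest (0.238 to 0.434), against ERVL they are highest (3.96 to 13.9, with 4.47 in blastocyst run 1.2 above the lowest), and against L1 the blastocyst runs (0.189 to 0.330) are below all oocyte and 2-cell runs, with 8-cell run 1.1 among them (0.277).

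ERVK varied little over runs beside the other large families. Its highest share of all counts was 2.41 times its lowest over the 11 runs, and its highest stage mean 1.67 times its lowest. 15 families had a mean share of at least 1%, and among these the range over runs was smaller for MIR alone (2.12). ERV1, another LTR family, came next to ERVK with a range of 2.90, followed by B2 at 3.60. L1 had a range of 4.64, MaLR 5.71 and ERVL 33.8. As a share of transposon counts the range of ERVK was 1.98, the second smallest of 25 families with at least 100 counts in all and a count in every run. No test of this order was made, and shares of one run sum to a fixed total.

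**Figure D5:**
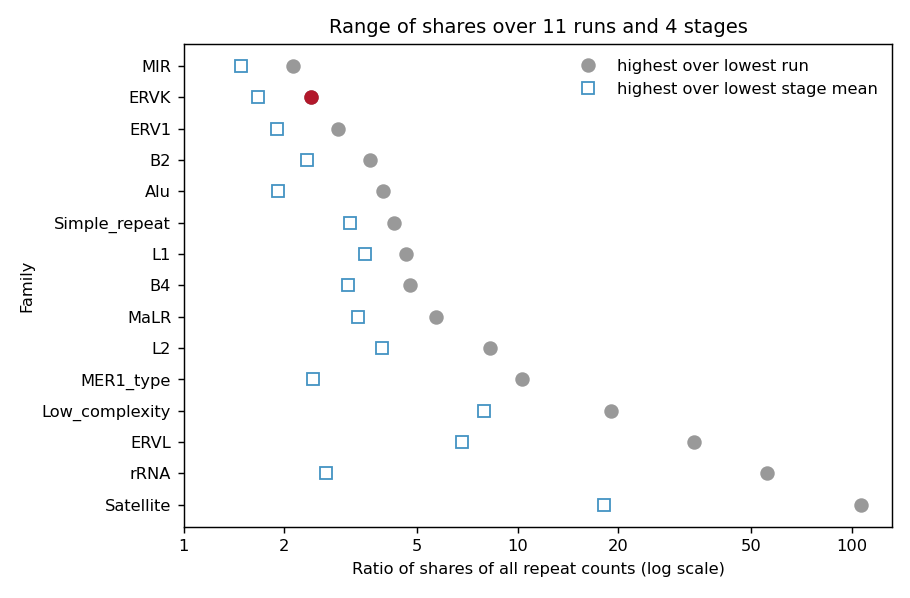
Highest over lowest run (filled) and highest over lowest stage mean (open squares) of the share of all repeat counts, on a log scale, for the 15 families with a mean share of at least 1%. ERVK (red) has ranges of 2.41 over runs and 1.67 over stages, next to MIR at 2.12 and 1.49, and Satellite has the widest at 107 over runs.

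The families whose pattern was most like that of ERVK were found by the SD, over the 11 runs, of the log2 ratio of their counts to those of ERVK, among 34 families. The smallest SDs were those of MIR, an old mammalian SINE (0.44), B2 (0.47), B1, listed as Alu (0.52), B4 (0.64) and Tip100, a DNA transposon family (0.65). A small SD did not mean the same order of stages. The mean share of all counts was highest in the blastocyst for MIR (1.57%) and in the 8-cell embryo for B4 (8.09%). B4 was also called higher against ERVK from oocyte to 8-cell embryo (2.55-fold) and to blastocyst (2.28-fold). The first LTR family in this order was ERV1, at rank 6 (0.67), and MaLR ranked 10 (0.85). MIR had 0.0840 to 0.241 counts per ERVK count over all runs, a range of 2.87. Without oocyte run 1.1 and 8-cell run 2, left out after seeing the data, the first 3 were still MIR, Alu and B2 (0.46, 0.50 and 0.51), followed by the row named Other and MER1_type. The order of LTR families changed: Gypsy came first, at rank 8 (0.64, from rank 26), before ERV1 at rank 10 (0.74) and MaLR at rank 12 (0.83). The 11 runs come from 4 samples, so this order describes these libraries only.

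Runs of different stages were sequenced together in 3 cases, as the read names show. Oocyte run 1.2 and 8-cell run 1.2 had 9.11% and 10.2% ERVK of all counts (ratio 1.12) and 17.9% and 24.1% of LTR counts (1.35). 2-cell run 2 and 8-cell run 2 had 13.5% and 10.5% of all counts (0.782) but 30.03% and 37.6% of LTR counts (1.25), and 16.4% and 17.4% of transposon counts (1.06). The lower 8-cell share of all counts was thus also seen in this 1 pair within one sequencing run, while its shares of transposon and LTR counts went the other way. The pair includes 8-cell run 2, which stood apart in rRNA (26.5% of counts, against 12.8% in 2-cell run 2). The part of rRNA in this lower share was not tested. Blastocyst run 1.2, with 7.29% of all counts, lay between oocyte runs 1.1 and 2 of the same sequencing run (5.61% and 9.41%). Of LTR counts it had 38.3%, above both (27.9% and 19.3%), a ratio of 1.62. The oocyte and the 2-cell embryo shared no sequencing run, and neither did the blastocyst with the 2-cell or the 8-cell embryo. For these pairs, the falls from 2-cell embryo to blastocyst included, the effects of stage and of sequencing run cannot be told apart.

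The score of the read placements, deposited without its scale, also differed between runs. Its median was 50, 53 and 35 for oocyte runs 1.1, 1.2 and 2, and 24 and 43 for the 2-cell embryo (runs 1 and 2). For 8-cell runs 1.1, 1.2 and 2 it was 16, 28 and 54, and for those of the blastocyst 16, 32 and 15. 8-cell run 2, with the highest median score, had the highest ERVK share of transposon counts, and 8-cell and blastocyst runs 1.1, each with a median of 16, had the lowest. Other runs did not follow this order: blastocyst run 2, with a median of 15, had 12.3%, 2-cell run 1, with 24, had 14.7%, and oocyte run 1.2, with 53, had 12.8%. The part of the score in the ERVK shares was not tested.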

How the data were processed

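Read counts per repeat family were used as the authors deposited them, in 11 columns whose headers name 4 stages with a number for each column. The headers do not say what the number stands for, and each column was taken as a run. All columns were used. The submitters' processing notes name mm9 as genome build and CASAVA as a tool, without its role. Which repeat annotation was used, and how reads that map to several places were counted, is not given in the sources used here. Read files of the authors give placements of 25 bases with a score, used here for the number of placements, the median score and the sequencing run in the read name.

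ERVK counts were divided by the counts of the same run summed over 47 families, over the 34 transposon families or over the 9 LTR families, with Python 3.11.15, pandas 2.3.3 and scipy 1.17.1. Families were placed in classes from general knowledge of repeat names. Stage values are means over runs with equal weight. The call rule asked for a ratio of at least 2 and runs that do not overlap. Since the labels do not tie runs to separate pools of embryos, they count as repeats of 1 sample. A count of 3 is 0.000156% of the deepest and 0.00813% of the shallowest run. The labels mention no molecular identifiers, and reads that share a molecule would make the intervals too narrow, so these cover counting error only.

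Besides ERVK, the rule for names took all LTR families, L1, rRNA and the 5 families with the smallest SD of the log2 ratio to ERVK, among those with at least 100 counts in all and 1 in every run. The ranges over runs also name families with a mean share of at least 1%, chosen after their values were seen. The family, the lists and the alternatives were chosen with earlier results of these data known. Alternatives were the weight and summary of runs, the denominator, size factors, a filter at 100 counts, leaving out each run, and runs of a shared sequencing run.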

Additional observations from a re-analysis of the deposited data

How the results depend on the processing

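No paired analysis was possible because each stage is 1 sample and the run numbers are not given as pairs in the labels. In 207 recomputations of the 18 ratios of ERVK shares none passed the 2-fold rule, as with all runs, and 188 kept their direction. The 19 that turned belonged to pairs of stages with ratios of 0.811 to 1.22 over all runs. For oocyte to blastocyst in all counts (1.04) they were 0.681 with size factors, 0.905 without RNA gene rows, 0.778 without RNA, satellite and simple rows, 0.971 in the shared sequencing run, and 0.899 without the runs apart in rRNA, which was chosen after seeing the data. Leaving out 1 run gave 0.892 to 1.13. For oocyte to 8-cell (1.22) the value was 0.933 without RNA, satellite and simple rows. In transposon counts 2-cell to 8-cell (0.811) was 1.06 with summed counts and in the shared sequencing run, 8-cell to blastocyst (0.833) was 1.03 without 8-cell run 2 (0.735 to 1.03 over runs left out), also with oocyte run 1.1 left out, and oocyte to 8-cell (0.933) was 1.26 with summed counts and 0.756 to 1.06 over runs left out. In LTR counts 2-cell to 8-cell (0.869) was 1.09 with summed counts and 1.25 in the shared sequencing run, 8-cell to blastocyst (1.21) was 0.961 with summed counts, and 2-cell to blastocyst (1.05) was 0.960 to 1.16 over runs left out. The cause was not tested. With size factors the median family shifted in log2 ratio by -0.67 from oocyte to 2-cell, -0.65 from 8-cell to blastocyst, -0.74 from oocyte to blastocyst, -0.40 from oocyte to 8-cell and 0.23 from 2-cell to 8-cell. The ratios of ERVK to MaLR, ERVL, ERV1 and L1 counts that passed with either family as the divisor kept their direction in 79 recomputations added after seeing the data. Of these 6 no longer passed and 3, all for ERV1 from 2-cell to 8-cell, newly passed. The smallest ERVK count of a run was 2693, which bears on counting error only. The part of depth in the ERVK shares was not tested.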
